A study of Mus musculus with 12 samples.

Results

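Adipokines are proteins that fat cells secrete, and acute-phase proteins are plasma proteins whose level changes in inflammation. Described here are 10 such genes, Lcn2, Hp, Orm1, Saa3, Serpina3n, Retnla, Retn, C3, Cfd and Adipoq, of the 55414 gene identifiers in the count table. They were taken as a fixed list of symbols, selected on the counts of these same libraries, in which their higher level at day 2 than at day 0 was already known. The difference between days is therefore described for them and not tested. The difference between the lines is tested.

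The cells were 3T3-L1, a mouse fibroblast-like line that turns into fat cells under hormones. Their cell type label reads mesenchymal stem cells. The 12 libraries formed 4 groups of 3. FHL2-GFP cells, whose genotype label is FHL2 overexpression, were taken at day 2 and day 0, and so were cells that carried control GFP. The FHL2 protein, built of LIM domains, is a cofactor of transcription, and the series asks about its part in early adipogenesis. Cells of day 0 were past confluence, and cells of day 2 had received 170 nM insulin, 1 µM dexamethasone and 0.5 mM isobutylmethylxanthine. The medium of both days held 10% fetal bovine serum. No uninduced cells of day 2 were taken, so induction cannot be told apart from time or a batch. The labels do not state whether a line is a single clone or a pool, nor whether its 3 libraries came from separate cultures. Each p therefore measures only the spread between these libraries, which may be technical.

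In fat tissue, adipokines carry signals on appetite, insulin action and inflammation, and adiponectin is made almost only by fat cells. Acute-phase proteins are best known from the liver, where interleukin-6, C/EBP factors, NF-kB and glucocorticoids drive their genes. Fat cells and their precursors make several of them too. 3T3-L1 cells express adiponectin, adipsin and resistin late in differentiation, after the C/EBP factors have turned on Pparg.

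Promoters are printed for the genes whose FHL2 and control libraries did not overlap at day 2. None of these genes was called between the lines by edgeR. Lcn2, Saa3 and Serpina3n had all FHL2 libraries above all control libraries, as had 7.28% of all genes tested. Adipoq and Cfd had all of them below, as had 7.41%. Adipoq and Cfd passed the filter on low counts through control day 2, so nothing is read from their direction. RefSeq promoters on GRCm38.p6, from 250 bases before to 50 bases after the start of the gene, were available for 8 of the 10 genes, and the counts were made on the later build GRCm39. Each sequence is written 5′ to 3′ on the strand of the gene. Capitals mark matches on either strand to 6 motifs, and no matches overlapped. They are TTGCNNAA for C/EBP, GNACA and TGTNC with 3 bases between them for the glucocorticoid receptor, GGGNN directly followed by TTNCC for NF-kB, TTCNNNGAA for STAT, AGGTCA repeated after 1 base for PPAR, and TATAAA for the TATA box.
Lcn2, chr2:32387690-32387989, minus strand: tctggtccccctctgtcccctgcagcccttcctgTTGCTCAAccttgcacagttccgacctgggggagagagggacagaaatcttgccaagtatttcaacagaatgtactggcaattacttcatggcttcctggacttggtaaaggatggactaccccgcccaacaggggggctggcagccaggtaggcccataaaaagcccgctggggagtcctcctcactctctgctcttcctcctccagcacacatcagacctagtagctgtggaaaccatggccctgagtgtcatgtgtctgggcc
Saa3, chr7:46715627-46715926, minus strand: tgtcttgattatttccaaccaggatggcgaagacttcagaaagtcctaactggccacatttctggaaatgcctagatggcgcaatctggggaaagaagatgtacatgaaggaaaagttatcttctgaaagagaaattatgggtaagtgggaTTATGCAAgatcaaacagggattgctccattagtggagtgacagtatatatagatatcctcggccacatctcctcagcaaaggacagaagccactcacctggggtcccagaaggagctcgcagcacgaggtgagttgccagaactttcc
Serpina3n, chr12:104406458-104406757, plus strand: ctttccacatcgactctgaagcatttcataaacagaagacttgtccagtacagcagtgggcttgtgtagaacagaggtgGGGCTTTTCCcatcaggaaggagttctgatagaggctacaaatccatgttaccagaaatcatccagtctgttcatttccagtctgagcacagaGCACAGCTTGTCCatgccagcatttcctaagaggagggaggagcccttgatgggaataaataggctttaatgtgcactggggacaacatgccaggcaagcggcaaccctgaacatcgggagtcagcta
Adipoq, chr16:23146286-23146585, plus strand: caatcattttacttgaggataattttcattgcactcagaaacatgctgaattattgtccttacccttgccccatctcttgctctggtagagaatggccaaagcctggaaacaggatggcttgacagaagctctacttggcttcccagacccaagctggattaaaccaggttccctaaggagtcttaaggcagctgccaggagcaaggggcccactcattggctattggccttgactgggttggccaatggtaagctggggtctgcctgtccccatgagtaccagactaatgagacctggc
Cfd, chr10:79890603-79890902, plus strand: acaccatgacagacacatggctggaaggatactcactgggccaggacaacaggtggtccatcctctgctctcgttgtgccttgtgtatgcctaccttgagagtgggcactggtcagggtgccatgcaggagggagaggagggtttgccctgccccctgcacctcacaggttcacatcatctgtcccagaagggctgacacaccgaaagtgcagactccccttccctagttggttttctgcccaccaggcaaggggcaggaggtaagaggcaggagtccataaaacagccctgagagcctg

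The C/EBP letters stood in 4 of the 8 promoters (Lcn2, Saa3, Retnla and C3), and in 10.8% of 32841 promoters of the same length. The glucocorticoid receptor letters stood in 1, Serpina3n, against 0.475% of all promoters. NF-kB letters stood in Serpina3n and Retn, against 4.8% of all. The letters TATAAA stood in Retnla and C3, against 13.6% of all promoters, in Retnla before the start of the gene and in C3 after it. The STAT letters (8.3% of all) and the PPAR letters (0.0396% of all) stood in 0 of the 8. Adipoq and Cfd held none of the 6 motifs in this window. These are matches of letters and show no binding.

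The libraries held 10047708 to 21872139 counts. Levels below are CPM, counts over the library total after scaling by the trimmed mean of M-values (TMM), as mean ± SD with n = 3. Counts fell on 12689 to 16131 genes in the day 2 libraries and on 17977 to 18811 in those of day 0. Control day 2 replicate 3 (12689 genes) and FHL2 day 2 replicates 1 (13657) and 2 (14158) stood lowest, and for some genes results are also given without them. Fhl2 itself did not pass the test in either direction, with 17.1 ± 6.49 CPM in libraries labelled FHL2 against 16.3 ± 4.03 CPM in control at day 2, and 62.7 ± 4.35 CPM in FHL2 against 61.2 ± 2.4 CPM in control at day 0. All directions for FHL2 therefore follow the labels.

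Whether other cells were present was read from marker lists. Of 12 macrophage and blood markers, Ptprc, Adgre1, Itgam, Mrc1, Chil3, Fcgr1 and Tyrobp had no count in any day 2 library. At day 2 the list summed to 1.35 to 4.78 CPM in FHL2 and 1.40 to 4.43 CPM in control. At day 0 it summed to 7.96 to 13.7 CPM in FHL2 and 7.30 to 8.26 CPM in control. The 6 neutrophil markers summed to 0 to 2.73 CPM in FHL2 and 0.735 to 3.09 CPM in control at day 2, with S100a9, Ngp, Ltf and Elane at 0. The 8 hepatocyte markers, albumin (Alb) among them, were at 0 CPM in all FHL2 day 2 libraries and at 0 to 0.294 CPM in control. The 12 mesenchymal and preadipocyte markers summed to 18753.9 to 19155.2 CPM in FHL2 and 18825.1 to 21718.3 CPM in control at day 2, with Nt5e at 0. The 10 adipocyte markers summed to 322 to 403 CPM in FHL2 and 422 to 486 CPM in control at day 2, so the lines did not overlap, and Lep was at 0 throughout. At day 0 the adipocyte sums were 202 to 236 CPM in FHL2 and 183 to 199 CPM in control, which did not overlap either, with FHL2 higher. Of all single genes tested, 7.41% were lower in all FHL2 libraries at day 2, and 10.5% were higher in all of them at day 0. In bulk RNA, fewer cells of a type and less RNA per cell cannot be told apart.

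At day 2 all 10 genes had counts in both lines, at levels far apart. Per kilobase of transcript, C3 stood highest, at 426 ± 76.8 CPM per kb in FHL2 and 519 ± 64.2 in control. Lcn2 came next, at 178 ± 8.21 CPM per kb in FHL2 and 140.5 ± 17.7 in control. Retnla had 115 ± 18.7 CPM per kb in FHL2 and 67.3 ± 29.0 in control. The acute-phase genes Serpina3n (32.3 ± 2.51 in FHL2, 20.7 ± 5.94 in control) and Hp (28.1 ± 9.78 in FHL2, 17.6 ± 3.26 in control) were close neighbours whose values lay within their spread. Saa3 and Orm1 were next per kb, with 25.3 ± 6.18 and 6.57 ± 5.53 in FHL2, and 7.66 ± 5.47 and 9.09 ± 4.49 in control. Adipoq, Cfd and Retn, the genes of the mature fat cell, formed the bottom of the order in both lines. Adipoq had 0.621 ± 1.08 CPM per kb in FHL2 and 3.01 ± 1.47 in control, and in control this did not differ from Cfd (1.32 ± 0.797) and Retn (1.83 ± 1.89) beyond their spread.

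**Figure D1:**
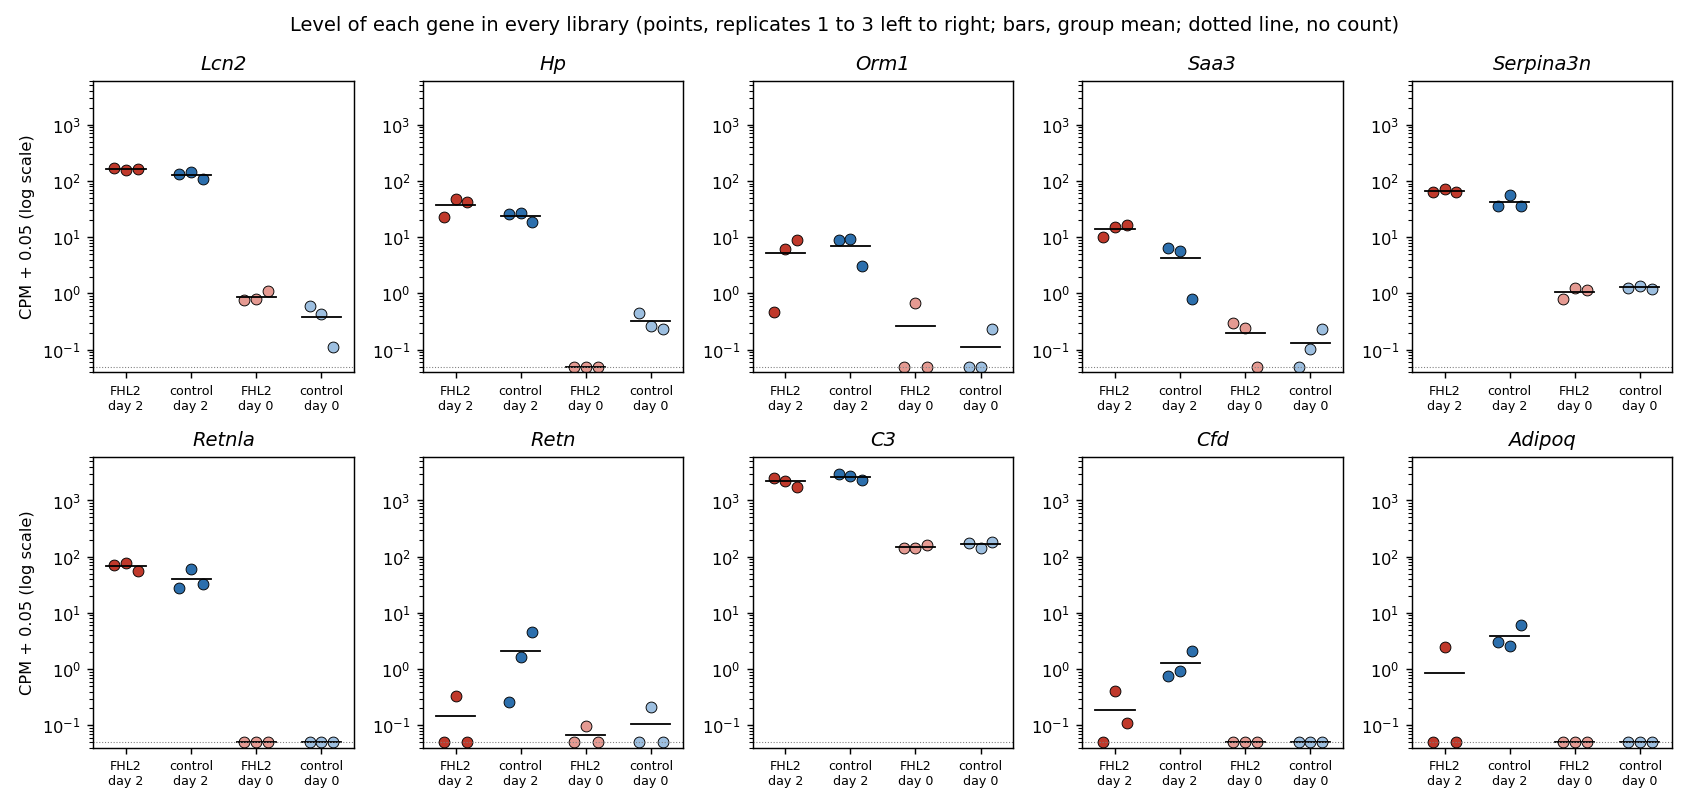
Level of the 10 genes in each library, as CPM + 0.05 on a log scale (points, replicates 1 to 3; bars, group means; dotted line, no count), with FHL2 and control at day 2 left of FHL2 and control at day 0. Every gene has higher means at day 2 than at day 0 in both lines, and Retnla, Cfd and Adipoq sit on the line of no count in all 6 day 0 libraries.

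Lcn2 (ENSMUSG00000026822), a lipocalin that binds bacterial siderophores, had 167, 154 and 167 CPM in the FHL2 libraries of day 2, against 0.718, 0.733 and 1.04 CPM in those of day 0. In control it had 133, 142 and 111 CPM at day 2, against 0.543, 0.378 and 0.0613 CPM at day 0. The days did not overlap, and the log2 fold change was 7.60 (SE 0.25) in FHL2 and 8.50 (SE 0.28) in control. At day 2 every FHL2 library lay above every control library, by a log2 fold change of 0.34 (SE 0.17) that did not pass edgeR's quasi-likelihood test (adjusted p = 0.322). At day 0 the FHL2 libraries were again all higher, on 17, 15 and 22 counts against 12, 7 and 1 in control (log2 fold change 1.23, SE 0.39, adjusted p = 0.640).

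Hp (ENSMUSG00000031722), haptoglobin, binds free haemoglobin. Its day 2 values were 22.9, 47.8 and 42.6 CPM in FHL2 and 25.5, 26.9 and 18.7 CPM in control, and FHL2 replicate 1 lay inside the control range. The log2 fold change between the lines was 0.67 (SE 0.30, edgeR adjusted p = 0.267). At day 0 it had no count in any FHL2 library and 9, 4 and 3 counts in control. Against a floor of 3 counts over the group, FHL2 was at least 5.84-fold lower at day 0 (edgeR adjusted p = 0.162). That difference passed with DESeq2 (adjusted p = 0.0162), without a filter on low counts (0.00136) and without the 3 libraries with few genes (0.0236), in a range over 15 alternatives of 0.00136 to 0.810. Day 2 stood at least 821-fold above day 0 in FHL2, and by a log2 fold change of 6.38 (SE 0.43) in control.

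Orm1 (ENSMUSG00000039196) encodes an orosomucoid, a plasma carrier of lipophilic drugs. Orm1 had 0.416, 6.02 and 8.84 CPM in FHL2 at day 2 (6, 85 and 146 counts), against 9.0, 9.11 and 3.03 CPM in control (128, 124 and 28 counts). The lowest value of each line came from a library with few genes, and the lines overlapped (log2 fold change -0.47, SE 1.14, edgeR adjusted p = 0.874). Without FHL2 day 2 replicate 1 the sign turned, to 0.056. All 3 Orm genes are near copies whose reads may be shared, and their sum was 44.3 ± 13.2 CPM in FHL2 and 37.0 ± 12.1 CPM in control at day 2. At day 0 Orm1 rested on 13 counts in 1 FHL2 library and 3 counts in 1 control library. Day 2 was higher by 4.58 (SE 1.38) in FHL2 and 6.83 (SE 1.62) in control on the log2 scale.

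Saa3 (ENSMUSG00000040026), the serum amyloid A gene that mouse fat and macrophages express, gave the largest positive log2 fold change of the 10 genes between the lines at day 2. Its levels were 10.1, 15.4 and 16.5 CPM in FHL2, against 6.26, 5.73 and 0.757 CPM in control. The lines did not overlap, but the log2 fold change of 1.71 (SE 0.75) did not pass (edgeR adjusted p = 0.251), and adjusted p ran from 0.0744 to 0.363 over 16 alternatives. Day 0 held 6, 4 and 0 counts in FHL2 and 0, 1 and 3 in control, below day 2 by 6.46 (SE 0.98) in FHL2 and 5.75 (SE 1.04) in control on the log2 scale. The liver isoforms were almost absent. Saa2 had no count, and Saa1 had 0.425 ± 0.736 CPM in FHL2 and 0.0490 ± 0.0849 CPM in control at day 2.

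Serpina3n (ENSMUSG00000021091) encodes a secreted inhibitor of serine proteases and came closest to a call. It had 62.8, 72.5 and 64.7 CPM in FHL2 at day 2, against 35.7, 57.0 and 35.7 CPM in control. No FHL2 library fell into the control range, and the log2 fold change was 0.64 (SE 0.20, edgeR adjusted p = 0.115). It passed with DESeq2 (adjusted p = 0.0407), with limma-voom (0.0437) and without control day 2 replicate 2 (0.0439), in a range of 0.0407 to 0.348 over 16 alternatives. Without the 3 libraries with few genes, which leaves a single FHL2 library of day 2, the log2 fold change was 0.46. Serpina3n lies in a cluster of similar genes. Summed with Serpina3c, Serpina3k and Serpina3m it had 74.5 to 83.8 CPM in FHL2 and 41.3 to 64.4 CPM in control. Serpina3n made up most of this sum, with 66.7 of 78.2 CPM in FHL2 and 42.8 of 50.9 CPM in control. The sum therefore follows Serpina3n and is no separate support. Serpina3f, Serpina3g, Serpina3h and Serpina3i had counts and were not in the sum. At day 0 Serpina3n had 1.02 ± 0.237 CPM in FHL2 and 1.23 ± 0.0653 CPM in control (log2 fold change -0.27, SE 0.28). The estimate thus had opposite signs on the 2 days, with an interaction of 0.91 (SE 0.35, edgeR adjusted p = 0.629) that did not pass.

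Of the resistin family, Retnla (ENSMUSG00000061100), a secreted resistin-like protein known from alternatively activated macrophages, had no count in any of the 6 day 0 libraries. At day 2 it had 71.9, 78.4 and 56.6 CPM in FHL2 and 28.0, 60.2 and 32.7 CPM in control. These were at least 1499-fold above day 0 in FHL2 and at least 765-fold in control. Control replicate 2 reached into the FHL2 range, and the log2 fold change between the lines was 0.77 (SE 0.29, edgeR adjusted p = 0.191). It passed in 2 of 16 alternatives, without a filter on low counts (adjusted p = 0.0290) and without control day 2 replicate 2 (log2 fold change 1.19, adjusted p = 0.0487). Without the 3 libraries with few genes, which leaves a single FHL2 library of day 2, the log2 fold change was 0.33. Of the 12 macrophage and blood markers, 5 had a count at day 2 in FHL2 and 3 in control. They were Lyz2 (79 counts in FHL2 and 38 in control), Cd68 (15 in FHL2 and 44 in control), Csf1r (1 in FHL2 and 19 in control), and in FHL2 also Fcer1g (18) and Cx3cr1 (7). Their part in the level of Retnla was not tested.

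Retn (ENSMUSG00000012705), resistin itself, was the scarcest of the 10 per kb in FHL2 and had too few counts for the test. At day 2 it had 0, 4 and 0 counts in FHL2 and 3, 22 and 41 counts in control, which is 0, 0.283 and 0 CPM against 0.211, 1.62 and 4.44 CPM. Control replicate 3, the library with the fewest genes, carried most of them. FHL2 replicate 2 lay above control replicate 1, so the lines overlapped. The ratio of pooled counts scaled by depth, FHL2 over control, was 0.0499, with a 95% interval of 0.0132 to 0.134 that covers counting error only. Without a filter on low counts the log2 fold change was -4.38 (SE 1.67, edgeR adjusted p = 0.128), and DESeq2 gave an adjusted p = 0.121. At day 0 there was 1 count in FHL2 and 3 in control. The other members of the family, Retnlb and Retnlg, had no count in any library.

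C3 (ENSMUSG00000024164), the central component of complement, was the only gene of the 10 with more than 100 CPM at day 0. It had 2547, 2253 and 1767 CPM in FHL2 at day 2 and 2927, 2773 and 2294 CPM in control. Day 0 values were 143, 140.3 and 161 CPM in FHL2 and 174, 144 and 185 CPM in control. C3 was higher at day 2 by 3.89 (SE 0.15) in FHL2 and 3.99 (SE 0.15) in control on the log2 scale, the smallest difference between days among the tested genes with a count in all 4 groups. The lines overlapped at day 2, and the log2 fold change of -0.28 (SE 0.13) did not pass (edgeR adjusted p = 0.274). Without a filter on low counts it passed at 0.0492. Without the 3 libraries with few genes the log2 fold change was -0.72. That fit holds a single FHL2 library of day 2, assumed to vary like the other groups, so it cannot establish a difference between the lines. The highest edgeR adjusted p over 16 alternatives was 0.559, in a fit of the day 2 libraries alone.

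Cfd (ENSMUSG00000061780), adipsin, is the protease that starts the alternative complement pathway. It was barely detected, with 0, 5 and 1 counts in FHL2 and 10, 12 and 19 counts in control at day 2, and none at day 0. In CPM this was 0, 0.354 and 0.0606 in FHL2 against 0.703, 0.882 and 2.06 in control, so every FHL2 library lay below every control library. The log2 fold change of -3.07 (SE 1.39) did not pass (edgeR adjusted p = 0.278). The pooled ratio, FHL2 over control, was 0.120 with a 95% counting interval of 0.0418 to 0.285. The day 2 mean was 3.01 times the day 0 floor in FHL2, on 0, 5 and 1 counts, and 23.0 times the floor in control.

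Adipoq (ENSMUSG00000022878), adiponectin, the hormone that raises insulin sensitivity, had no count at day 0. At day 2 it had 0, 34 and 0 counts in FHL2 and 43, 35 and 56 counts in control. All of its FHL2 counts came from replicate 2, whose 2.41 CPM lay just under the lowest control value of 2.57 CPM, while control reached 6.06 CPM. The log2 fold change was -2.27 (SE 1.58, edgeR adjusted p = 0.490). Over 16 alternatives the adjusted p ran from 0.0457 to 0.793. The lowest came without the 3 libraries with few genes, which leaves a single FHL2 library of day 2 with 0 counts and takes its spread from the other groups, so it shows no difference between the lines. The day 2 mean was 17.5 times the day 0 floor in FHL2, carried by replicate 2 alone, and 73.8 times the floor in control. The other FHL2 libraries had no count on either day.

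**Figure D2:**
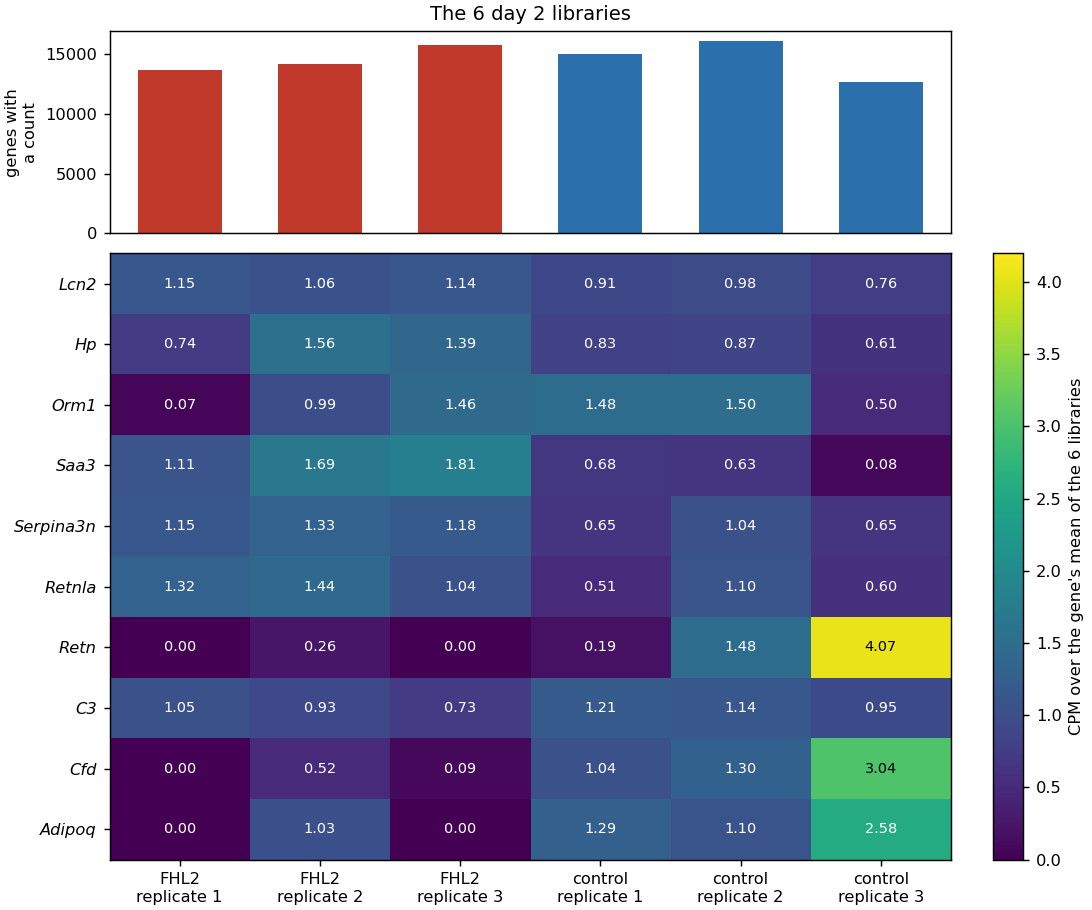
The 6 day 2 libraries, FHL2 left of control: genes with a count (bars) and, for each of the 10 genes, the CPM of a library over the mean CPM of the gene across the 6 libraries (coloured cells). Retn, Cfd and Adipoq are highest in control replicate 3, the library with 12689 genes, in which Lcn2, Hp and Saa3 are lowest.

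Adipoq, Cfd and Retn shared a pattern over the day 2 libraries. Each peaked in control replicate 3, and each had no count in FHL2 replicate 1. The summed adipocyte markers were 403, 374 and 322 CPM in FHL2 replicates 1, 2 and 3, and 449, 486 and 422 CPM in control. Lpl had the highest mean of these markers, at 166 ± 35.1 CPM in FHL2 and 190 ± 25.4 CPM in control at day 2. Lpl already had 170 ± 17.0 CPM in FHL2 and 141 ± 12.4 CPM in control at day 0. The order of the sums therefore says little about scarce markers. The sums were lower in every FHL2 library than in every control library at day 2. At day 0 they were higher in every FHL2 library (202 to 236 CPM in FHL2, 183 to 199 CPM in control). Plin1, which coats lipid droplets, averaged 4.16 CPM in FHL2 and 15.8 CPM in control at day 2. Fabp4, a fatty acid carrier, had 8.67 ± 0.528 CPM in FHL2 and 15.9 ± 7.57 CPM in control at day 2. Of the 8 adipocyte markers tested, edgeR called 0 between the lines at day 2, where it called 2.07% of all genes. An unadjusted p under 0.05 was reached by 2 of the 8 (18.1% of all genes), and the median log2 fold change of the 8 was -0.49. DESeq2 called 1 of them lower, where it called 7.36% of all genes, and limma-voom 2 (2.13%). The part of these markers in the values of Adipoq, Cfd and Retn was not tested.

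Read over the list, FHL2 against control at day 2 gave 0 calls among the 9 genes tested by edgeR, where 2.07% of all 14435 genes were called. DESeq2 and limma-voom each called 1, Serpina3n, where they called 7.36% and 2.13% of all genes with an adjusted p. An unadjusted p under 0.05 was reached by 5 of the 9, against 18.1% of all genes. The median log2 fold change of the 9 was 0.34, and 0.0091 over all genes. Libraries did not overlap for 3 genes that were higher in FHL2 (7.28% of all genes) and for 2 that were lower (7.41%). The 2 lower genes, Cfd and Adipoq, passed the filter on low counts through the control libraries of day 2, where they were high, so nothing is read from their direction. The smallest p that an exact permutation of 3 against 3 libraries allows is 0.1.

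**Figure D3:**
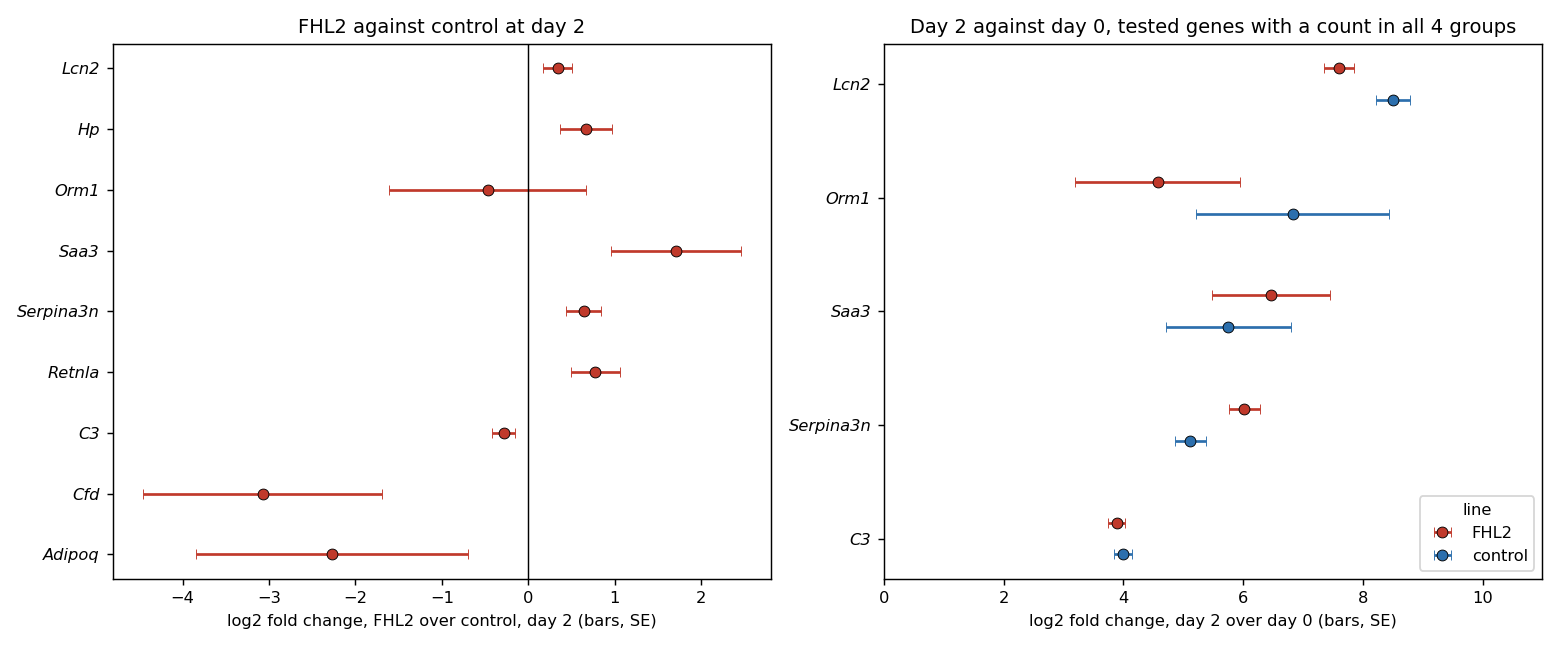
Log2 fold changes with their SE for FHL2 over control at day 2 (left, 9 tested genes) and for day 2 over day 0 in FHL2 and control (right, the 5 tested genes with counts in all 4 groups). Lcn2, Hp, Saa3, Serpina3n and Retnla lie right of 0 on the left and Orm1, C3, Cfd and Adipoq left of it, and on the right every gene lies between 3.89 and 8.50.

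At day 0, edgeR called 0 of the 6 tested genes with a count at day 0, where 0.0485% of all genes were called. An unadjusted p under 0.05 was reached by 2, Lcn2 and Hp (4.16% of all genes), while DESeq2 called 1, Hp (0.712% of all genes), and limma-voom 0 (0.125%). Lcn2 was higher in all FHL2 libraries (10.5% of all genes) and Hp lower in all of them (11.1%).

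Between the days, 8 of the 9 tested genes had an adjusted p under 0.05 upward in FHL2, where 56% of all genes were called and 25.8% upward. In control it was 9 of 9, where 57.1% of all genes were called and 26.3% upward. The list was drawn up with this rise known, and most of the genes passed the filter on low counts through their day 2 libraries, so nothing is read from these counts. The call of Adipoq in FHL2 was the least stable, with an adjusted p = 0.162 by DESeq2 and 0.0935 with a replicate block. The interaction, the day 2 difference between the lines minus that of day 0, could be given for the 5 genes with counts in all groups. By edgeR 0 of them were called, where 0.00693% of all genes were, and 0 by DESeq2 (0.586%) and limma-voom (0.00693%). Its estimates were -0.90 (SE 0.43) for Lcn2, 0.71 (SE 1.70) for Saa3, -0.11 (SE 0.19) for C3, 0.91 (SE 0.35) for Serpina3n and -2.25 (SE 2.02) for Orm1. Only Serpina3n had an unadjusted p under 0.05 (6.9% of all genes).

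Other secreted proteins of these classes gave a few calls between the lines at day 2. Of 26 tested other adipokines, edgeR called 0 higher and 2 lower in FHL2, where it called 2.07% of all genes, with a median log2 fold change of -0.0022. DESeq2 called 1 higher and 4 lower, where it called 7.36% of all genes, and limma-voom 0 and 2 (2.13% of all). Mif, a cytokine that restrains glucocorticoid action, was 211 ± 21.8 CPM in FHL2 and 461 ± 55.3 CPM in control (log2 fold change -1.12, SE 0.11, edgeR adjusted p = 0.000198), although its many pseudogenes make its count uncertain. Angptl4, an inhibitor of lipoprotein lipase, had 351 ± 12.4 CPM in FHL2 and 507 ± 19.0 CPM in control (log2 fold change -0.53, SE 0.085, adjusted p = 0.00653, and 0.0675 in a fit of the day 2 libraries alone). Of 18 other acute-phase genes, edgeR called 1 higher and 0 lower, with a median of 0.25, and DESeq2 called 2 higher and limma-voom 1. It was the pentraxin Ptx3, at 103 ± 2.06 CPM in FHL2 and 64.3 ± 14.4 CPM in control (log2 fold change 0.68, SE 0.13, adjusted p = 0.0196). Ptx3 kept its call in 12 of 16 alternatives and lost it in a fit of the day 2 libraries alone (0.164), and without FHL2 day 2 replicate 2 (0.0747) or 3 (0.0539) or control day 2 replicate 1 (0.0593). Among 19 other complement genes edgeR called 0, with 4 at an unadjusted p under 0.05 (18.1% of all genes) and a median of 0.19. DESeq2 called 1 of them (7.36% of all genes) and limma-voom 0 (2.13%).

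Between the days edgeR called 56% of all genes in FHL2 and 57.1% in control, and the shares of these classes are read against that. Of the other adipokines, 11 rose and 6 fell in FHL2, and 11 and 6 in control, which is 65.4% in both lines. The CCN-family protein Ccn5 rose by 2.15 (SE 0.17) in FHL2 and 2.12 (SE 0.17) in control on the log2 scale. Over 16 alternatives its rise ran from 1.49 to 2.24 in FHL2 and from 1.45 to 2.33 in control. The chemerin gene Rarres2 rose by 2.02 (SE 0.47) in FHL2 and 2.53 (SE 0.48) in control. C1qtnf3, an adiponectin relative, fell to 0.536 ± 0.826 CPM at day 2 in FHL2, against 13.7 ± 0.458 CPM at day 0. In control C1qtnf3 fell to 0.122 ± 0.212 CPM at day 2, against 4.65 ± 0.857 CPM at day 0. Of the acute-phase genes, 7 rose and 2 fell in FHL2 (50%) and 7 and 5 in control (66.7%). For the interaction edgeR called 0 of these 18 genes, where it called 0.00693% of all genes. Lbp, which carries bacterial lipopolysaccharide, had 98.4 ± 22.6 CPM in FHL2 at day 2, against 2.70 ± 1.20 CPM in FHL2 at day 0 (log2 fold change 5.20, SE 0.30, edgeR adjusted p = 9.94e-09). The other orosomucoids Orm2 and Orm3 rose by 6.33 and 4.67 in FHL2. In control the rise was 5.05 for Lbp, 6.95 for Orm2 and 5.12 for Orm3. Of the complement genes, 3 rose and 1 fell in FHL2 (21.1%) and 3 and 7 in control (52.6%). DESeq2 gave 4 and 3 in FHL2 (51.1% of all genes) and 3 and 7 in control (51.8%). The interaction, which tests the lines against each other, was called for 0 of the 19 by edgeR (0.00693% of all genes). DESeq2 called 1 (0.586%) and limma-voom 0 (0.00693%). By edgeR, 6 of the 19 had an unadjusted p under 0.05 (6.9% of all genes). C4b rose by 2.71 (SE 0.32) in FHL2 and 3.62 (SE 0.34) in control, as far as its reads can be told from those of its near copy C4a.

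Of 10 tested receptors for these proteins, edgeR called 0 higher and 3 lower in FHL2 at day 2, where 2.07% of all genes were called, with a median log2 fold change of -0.34. DESeq2 called 0 higher and 3 lower (7.36% of all genes), and limma-voom 0 and 3 (2.13%). Adipor2, an adiponectin receptor, had 113 ± 9.37 CPM in FHL2 and 166 ± 12.3 CPM in control (log2 fold change -0.56, SE 0.10, edgeR adjusted p = 0.0138). Cdh13, T-cadherin, which binds adiponectin multimers, had 325 ± 25.4 CPM in FHL2 and 459.8 ± 25.0 CPM in control (log2 fold change -0.50, SE 0.088, adjusted p = 0.0117). Lrp1, a scavenger receptor, was lower by a log2 fold change of -0.64 (SE 0.14, adjusted p = 0.0370). In a fit of the day 2 libraries alone none of the 3 passed (adjusted p = 0.127 for Adipor2, 0.114 for Cdh13 and 0.0675 for Lrp1). Leaving out control day 2 replicate 1 ended the call of each (0.0606, 0.0507 and 0.0965 in the same order). Without FHL2 day 2 replicate 2 Adipor2 (0.0705) and Lrp1 (0.0843) lost theirs, as they did without control day 2 replicate 2 (0.0574 and 0.0858), and Lrp1 without FHL2 day 2 replicate 3 (0.0784). Adipor1, the other adiponectin receptor, had 137 ± 15.1 CPM in FHL2 and 141 ± 12 CPM in control, a difference that did not pass.

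Of 23 tested upstream regulators, edgeR called 0 between the lines at day 2, where it called 2.07% of all genes. An unadjusted p under 0.05 was reached by 9 (18.1% of all genes). DESeq2 called 4 lower, where it called 7.36% of all genes, and limma-voom 0 (2.13%). The median log2 fold change of the regulators was -0.24. Cebpb, an activator of acute-phase genes, had 97.4 ± 20.7 CPM in FHL2 and 140.3 ± 18 CPM in control (log2 fold change -0.53, SE 0.15, adjusted p = 0.0954). Stat3, which acts downstream of interleukin-6, had 435 ± 36.5 CPM in FHL2 and 514 ± 39.3 CPM in control (log2 fold change -0.24, SE 0.091, adjusted p = 0.185). Between the days 15 rose and 6 fell in FHL2, and 15 and 6 in control, or 91.3% in both lines, where 56% and 57.1% of all genes were called. Stat3 rose by 1.32 (SE 0.093) in FHL2 and 1.57 (SE 0.093) in control.

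The gene most like each tested gene over the 12 libraries, by Pearson's r of log2 CPM among genes of at least 5 CPM, shared chiefly the difference between days. For Lcn2 it was Fam107a (r = 0.996), for Hp Tmem176a (0.994), for Saa3 Aldh7a1 (0.991) and for Serpina3n Ear2 (0.995). For Retnla it was Cdc42se1 (0.997), for C3 Ksr1 (0.997) and for Orm1 Trappc6a (0.97). Cfd and Adipoq had looser neighbours, Exosc10 (0.958) and Tmem184b (0.946).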

How the data were processed

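Polyadenylated RNA was sequenced in 12 stranded libraries, 4 groups of 3 by label. The authors deposited raw counts per Ensembl gene identifier in a single table. Per the submitters' processing notes, HISAT2 2.2.1, HTSeq 0.11.0, Trimmomatic 0.39, FastQC 0.11.9, limma and R 4.1.0 were used, with GRCm39 (mm39). No settings, annotation release or strand setting of the counting were given in the sources used here. Reads of overlapping, antisense or near-identical genes may therefore be split.

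Counts were analysed with edgeR 4.0.16 in R 4.3.3. The filterByExpr filter by group left 14435 genes, 9 of the 10 among them (not Retn). Libraries were scaled by TMM, and all 12 libraries entered a single fit with 1 mean for each group. Quasi-likelihood p-values are 2-sided and Benjamini-Hochberg adjusted over all 14435 genes, and a gene is called at an adjusted p under 0.05. The spread is shared by days that differ in it (biological coefficient of variation 0.39 over day 2 libraries and 0.12 over day 0 libraries). The script was tested on simulated counts. A group with no count got a floor of 3 counts over the group. Intervals and floors cover counting error only. Levels per kilobase use the length of the principal coding transcript.

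The 10 genes, the other lists, the tests, the alternatives and the rule for naming genes were chosen with earlier results of these data known. By that rule, each list gave up to 3 called genes per comparison, taken by size of change among genes that averaged 5 CPM or more, and the named receptors and regulators could always be given. Gene symbols came from a gene name table that matched 52081 of 55414 identifiers. Promoters came from RefSeq on GRCm38.p6. GC content was taken by gene identifier from GENCODE M21. Alternatives were RLE and upper-quartile scaling, other filters, DESeq2 1.42.0, limma-voom (limma 3.58.1), an offset that follows GC content, only the groups compared, a replicate block, each library left out, and no library with few genes.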

Additional observations from a re-analysis of the deposited data

How the results depend on the processing

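Over all settings tried, the number of the 10 genes called between the lines at day 2 was 0, and became 2 without a filter on low counts (Retnla and C3), 1 with DESeq2, 1 with limma-voom, 2 without the 3 libraries with few genes (a fit with a single FHL2 library of day 2), and 0 to 2 with each library left out in turn (2 without control day 2 replicate 2). At day 0 it was 0, and became 1 without the filter, with DESeq2 and without the 3 libraries with few genes, and was 0 to 0 with each library left out. Day 2 against day 0 gave 7 to 9 calls in FHL2 and 8 to 10 in control, and the interaction 0. Deviations of same-numbered libraries from their group means had correlations over genes of -0.0862 to 0.105, which cannot decide whether these libraries were handled in pairs. A replicate block ended the calls of Adipoq in FHL2 between the days (adjusted p = 0.0935) and of Lrp1 (0.0566), and no other call among the 10 genes. With each library left out, log2 differences turned sign for Orm1 at day 2 (-1.16 to 0.056, positive without FHL2 day 2 replicate 1), Orm1 at day 0 (-3.07 to 4.88, negative without FHL2 day 0 replicate 2) and the Saa3 interaction (-0.59 to 1.35, negative without control day 0 replicate 3). With the GC offset the day differences of Cr1l in control (0.50) and of Tlr4 in FHL2 (0.073) and control (0.056) turned positive. Adipoq also lost its day call in FHL2 with limma-voom (0.205) and without FHL2 day 0 replicate 1, 2 or 3 (0.0710, 0.0685 and 0.0694), and in control with DESeq2 (0.0572). The cause was not tested. Of all genes, the fit reported called 299 between the lines at day 2, 7 at day 0 and 1 for the interaction. A fit of only the groups compared called 39 at day 2 and 246 at day 0. Which day held more calls between the lines thus turned round when the spread was not shared by the days. DESeq2 called 1131 at day 2, 97 at day 0 and 90 for the interaction. Depth limits Retn, Cfd and Adipoq, whose FHL2 values rest on 4, 6 and 34 counts at day 2.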

Other observations

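Enzymes that modify and fold adiponectin were measured beside the genes above. Of 10 tested, 4 rose and 3 fell between the days in FHL2, and 4 and 3 in control, a share of 70% where 56% and 57.1% of all genes were called. The lysyl hydroxylase Plod1 had 335 ± 49.5 CPM in FHL2 at day 2, against 134 ± 1.25 CPM in FHL2 at day 0 (log2 fold change 1.33, SE 0.12), and rose by 1.59 (SE 0.12) in control. Plod3, a related enzyme, rose by 1.11 (SE 0.089) in FHL2 and 1.28 (SE 0.089) in control. These sizes depended on the setting. Over 16 alternatives the rise of Plod3 ran from 0.42 to 1.20 in FHL2 and from 0.57 to 1.38 in control. For Plod1 it ran from 0.93 to 1.45 in FHL2 and from 1.18 to 1.75 in control. Between the lines at day 2, P4hb, a disulfide isomerase, was the only gene of the 10 that edgeR called, where it called 2.07% of all genes. DESeq2 called 1 higher and 1 lower (7.36% of all genes), and limma-voom 1 lower (2.13%). P4hb was lower in FHL2 by a log2 fold change of -0.36 (SE 0.071, edgeR adjusted p = 0.0216). That call was lost in a fit of the day 2 libraries alone (0.172), without the 3 libraries with few genes (0.0574), and without FHL2 day 2 replicate 1 (0.0671) or 2 (0.0898) or control day 2 replicate 1 (0.0655) or 2 (0.0889).

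Of 11 tested mesenchymal and preadipocyte markers, edgeR called 2 higher and 1 lower in FHL2 at day 2, where it called 2.07% of all genes, with a median log2 fold change of -0.0049. The lower gene was the collagen Col1a1 (log2 fold change -0.40, SE 0.081, adjusted p = 0.0226). Its call held in 12 of 16 alternatives and was lost in a fit of the day 2 libraries alone (0.161) and without FHL2 day 2 replicate 2 (0.0859) or 3 (0.0588) or control day 2 replicate 1 (0.0834). Of the higher genes, Ly6a, a surface antigen of progenitors, had 201 ± 19.5 CPM in FHL2 and 131 ± 25.0 CPM in control (log2 fold change 0.62, SE 0.14, edgeR adjusted p = 0.0341). The call of Ly6a held in 10 of 16 alternatives. It was lost in a fit of the day 2 libraries alone (0.131), without the 3 libraries with few genes (0.154), and without FHL2 day 2 replicate 2 (0.123) or 3 (0.0531) or control day 2 replicate 1 (0.106) or 3 (0.0977). Thy1, another surface antigen, had 301 ± 9.21 CPM in FHL2 and 228 ± 12.3 CPM in control at day 2, a log2 fold change of 0.40 (SE 0.078, adjusted p = 0.0198). Its day 0 levels were 295 ± 8.86 CPM in FHL2 and 199 ± 9.59 CPM in control (log2 fold change 0.56, SE 0.078, adjusted p = 0.0100). The day 0 call of Thy1 was lost when any single day 0 library was left out (adjusted p = 0.0515 to 0.128). Its day 2 call was lost in a fit of the day 2 libraries alone (0.252), without the 3 libraries with few genes (0.0589), and without FHL2 day 2 replicate 1 (0.0519) or 2 (0.0641) or control day 2 replicate 2 (0.0815) or 3 (0.0705).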
